A study of Mus musculus with 24 samples.

Results

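Genes of cholesterol synthesis, uptake, storage and efflux were followed across 24 RNA-seq libraries of C127 cells, a mouse mammary line. A list of 34 genes was drawn up, and a gene was kept when its symbol was in all 6 deposited tables and its mean normalised count reached 10 in each. This kept 32 of the 34 genes, out of 12023 genes that met the same rule. The 19 synthesis genes were all kept, as 7 of the mevalonate steps and 12 of the squalene and sterol steps. Also kept were 5 genes of the SREBP factors and their regulators (the SREBP group), 5 genes of esterification and transport, and 3 of the 5 genes of the LXR and efflux group. In all groups the cells lacked their own glucocorticoid receptor (GRKO in the labels) and expressed a GFP-tagged mouse receptor in its place. The receptor was the wild-type form (GFP-mGRwt) in the line called wt here and GFP-mGRtetra, which the labels leave undescribed, in the line called tetra. Each line had a vehicle group and groups with corticosterone (Cort, 100 nM), with TCA (100 µM) and with both agents. Treatment with Cort, TCA or both lasted 2 h, and the labels give no time for vehicle. All groups had first been kept for 24 h in medium with 10% charcoal-stripped serum, which is depleted of steroids. TCA is read here as taurocholic acid, a bile acid, because the series concerns bile acids and the labels give the abbreviation alone. Each of the 8 groups had 3 libraries, and the labels do not say whether these came from separate cultures or whether a line is a single clone, so the p-values measure the spread between these libraries alone.

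Cells make cholesterol from acetyl-CoA through mevalonate, farnesyl diphosphate, squalene and lanosterol. The genes of this route are switched on by the SREBP transcription factors, which SCAP escorts from the endoplasmic reticulum when sterols are low and which the INSIG proteins hold back when sterols are high. Excess cholesterol is esterified by the SOAT enzymes or exported through ABCA1 and ABCG1, whose genes are targets of the oxysterol-sensing receptors LXR, and bile acids are themselves made from cholesterol in the liver.

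The promoters of 4 members that the results below turn on were read from RefSeq (GRCm38.p6), as the 250 bases before the annotated start of each gene. Hmgcs1 and Idi1 are mevalonate genes that differed strongly between the lines, and Insig1 and Mylip are the genes that fell with Cort in both lines. Capitals mark CCAAT or its complement, the sterol response element TCACNCCAC and the E-box CACGTG, each searched on both strands.
Hmgcs1: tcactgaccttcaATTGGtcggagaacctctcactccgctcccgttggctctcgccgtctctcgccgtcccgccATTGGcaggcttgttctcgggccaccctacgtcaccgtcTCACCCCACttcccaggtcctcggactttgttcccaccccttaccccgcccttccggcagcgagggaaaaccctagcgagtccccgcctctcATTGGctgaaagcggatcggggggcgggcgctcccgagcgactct
Idi1: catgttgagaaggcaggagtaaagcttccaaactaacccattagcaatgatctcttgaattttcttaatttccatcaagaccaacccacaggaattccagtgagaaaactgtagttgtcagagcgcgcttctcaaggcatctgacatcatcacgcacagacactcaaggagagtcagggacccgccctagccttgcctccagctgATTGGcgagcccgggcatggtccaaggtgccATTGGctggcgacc
Insig1: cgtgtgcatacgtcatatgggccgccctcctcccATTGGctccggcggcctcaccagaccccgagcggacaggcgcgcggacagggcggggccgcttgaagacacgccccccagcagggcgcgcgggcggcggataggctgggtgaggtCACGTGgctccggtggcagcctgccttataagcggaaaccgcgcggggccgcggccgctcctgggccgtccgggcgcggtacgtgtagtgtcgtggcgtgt
Mylip: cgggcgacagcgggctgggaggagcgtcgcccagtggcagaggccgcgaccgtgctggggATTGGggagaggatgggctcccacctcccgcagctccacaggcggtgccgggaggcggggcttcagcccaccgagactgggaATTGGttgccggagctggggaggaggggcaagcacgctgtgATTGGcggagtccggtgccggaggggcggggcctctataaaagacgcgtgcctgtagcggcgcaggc
Hmgcs1 lies at chr13:119690101-119690350, Idi1 at chr13:8885356-8885605, Insig1 at chr5:28071162-28071411 and Mylip at chr13:45389492-45389741, all on the plus strand. RefSeq promoters were matched for 27 of the 34 genes. The CCAAT letters were found in 22 of these 27 promoters (81.5%), against 37.5% of the promoters of 27025 genes, and in 15 of the 16 synthesis genes with a promoter. CACGTG was found in 6 of the 27 (22.2%, against 6.86% of all), and TCACNCCAC in Hmgcs1 alone among the members, against 1.22% of all. The palindromic consensus of the glucocorticoid response element was found in none of the 27 promoters, Insig1 and Mylip included, and in 0.44% of all. A match describes letters in this window and is not evidence of a bound site. The lack of a match to these exact letters does not show that a site is absent.

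Libraries held 22.02 M to 30.6 M exon reads. The reads of the 45S ribosomal precursor took 18.2% to 28.6% of them. The receptor transgene is counted with Nr3c1, the receptor's own gene, so that gene cannot check the knockout, and it ranged from 4179 to 6477 normalised counts over all libraries. Tsc22d3, a textbook corticosteroid target, ranged from 1423 to 2308 in the 12 libraries with Cort and from 479 to 718 in the 12 without it, as the labels say. Against the label adenocarcinoma, 1 of 12 epithelial markers (Krt14) reached a mean of 10, Epcam was at 0 in all 24 libraries, and 8 of 9 mesenchymal markers reached it. Sums of these markers were set mostly by few genes. Krt14 had a mean of 604 over all libraries, and the highest mesenchymal means were those of Vim (89870), Col1a2 (53180) and Fn1 (45410). The wt libraries with TCA stood apart from those with vehicle: 57.4% of genes tested were called against vehicle, Nr3c1 ranged from 4179 to 4307 against 5265 to 5670.4, the summed epithelial markers from 171.2 to 282.3 against 1092.8 to 1239.9, and the summed mesenchymal markers from 156340.2 to 170351.4 against 221886.9 to 227710.1. No label names a batch, so TCA and any batch of these libraries cannot be told apart.

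In vehicle, expression of 17 of the 19 synthesis genes was lower in tetra than in wt. Of the 32 members, 26 were lower in tetra and 2 were higher (limma, called at an adjusted p below 0.05), where 38.5% of all genes tested were called, 19.7% lower and 18.8% higher. All 7 mevalonate genes and 10 of the 12 squalene and sterol genes were lower. The median log2 difference was -0.53 over the members and -0.64 over the synthesis genes, against 0.01 over all genes tested. Counting reads against the total instead of by median ratios moved the median of all genes to 0.11 and left 23 members lower and 2 higher, while the share of higher genes among all called ones went from 48.9% to 70.5%. The marker sums, set mostly by few genes, moved with the line as well. The epithelial sum (mostly Krt14) ranged from 1092.8 to 1239.9 in wt and 543.0 to 680.5 in tetra. The mesenchymal sum ranged from 221886.9 to 227710.1 and 197101.8 to 201945.6. The immune sum, of which 1 of 6 markers (Cd68) reached a mean of 10, ranged from 168.0 to 213.7 and 97.2 to 111.9, and the endothelial sum (1 of 4, Cdh5) from 266.2 to 295.5 and 194.0 to 208.8. Their part in the line difference was not tested. Values in bulk RNA cannot tell apart fewer cells of a kind and less RNA per cell, and the form of the receptor and the line that carries it cannot be told apart.

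Idi1, the isomerase that makes dimethylallyl diphosphate, was at 969, 917 and 962 normalised counts in the 3 wt vehicle libraries and at 456, 495 and 406 in those of tetra. It was 2.10-fold higher in wt (adjusted p = 2.33e-09). Hmgcs1, the HMG-CoA synthase, was at 10265, 10168 and 9250.4 in wt and at 5259, 4939 and 5467 in tetra, a 1.90-fold difference (adjusted p = 7.97e-11). In both genes every wt library lay above every tetra library. Among the other mevalonate genes, the wt excess was 1.87-fold for Mvd, the diphosphomevalonate decarboxylase, 1.74-fold for Acat2, the cytosolic thiolase, 1.72-fold for Fdps, the farnesyl diphosphate synthase, 1.42-fold for mevalonate kinase (Mvk) and 1.22-fold for phosphomevalonate kinase (Pmvk). The 2 kinases thus had the smallest ratios of the 7.

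Fdft1, the squalene synthase that commits carbon to sterols, was at 2017, 2091 and 2026 in wt and 1095, 1094 and 1089 in tetra. That was a 1.87-fold difference with little spread in either line (adjusted p = 6.74e-14). However, 18.3% of the Fdft1 exons overlap Ctsb on the other strand, and the headers give no strand setting. Other members share exons with other genes too, most of all Fdps (26.7%, Gm43738 on the same strand). The share was 13.2% for Scap, 12.1% for Hmgcs1 and Tm7sf2, 10.7% for Lbr and 9.2% for Idi1. Nsdhl, an enzyme that removes methyl groups from sterols, was 1.97-fold higher in wt, and its partners in that step Msmo1 and Hsd17b7 were 1.85-fold and 1.76-fold higher. The excess was 1.56-fold for the lanosterol demethylase Cyp51, 1.51-fold for the sterol isomerase Ebp, 1.50-fold for squalene epoxidase (Sqle), 1.42-fold for lanosterol synthase (Lss), 1.35-fold for the desaturase Sc5d and 1.31-fold for Dhcr7, the reductase of the last step. The sterol reductase Lbr, also a nuclear membrane protein, went the other way. It was at 2234, 2301 and 2240.1 in wt and 2553, 2787 and 2677 in tetra, 1.18-fold higher in tetra (adjusted p = 0.000229). Tm7sf2, a reductase that acts at the same step as Lbr, stood at 91.3 ± 2.46 in wt and 67.7 ± 1.27 in tetra (mean ± SD, n = 3), with every wt library above every tetra library, but did not pass the test (adjusted p = 0.0918).

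In the SREBP group, Insig1, itself a well known SREBP target, was at 11089, 11569 and 11126 in wt and 5717, 5389 and 5643 in tetra, 2.02-fold higher in wt (adjusted p = 3.18e-08). The libraries of the lines were far apart for this gene, and it was the highest member per kilobase of exon in wt, at 4264 ± 101 normalised counts per kilobase (SD, n = 3), against 2114 ± 65.1 in tetra. Insig2 was 1.46-fold and Srebf2, the factor most tied to cholesterol genes, 1.25-fold higher in wt. Srebf1, the relative of Srebf2 best known for fatty acid genes, was at 10084 ± 727 in wt and 10052 ± 135 in tetra (adjusted p = 0.987), and Scap at 1877 ± 153 and 1773 ± 37.3 (adjusted p = 0.41). The libraries of the lines overlapped for both genes, and neither passed the test. Per kilobase, Srebf1 was the highest member in tetra, at 2334 ± 31.4, where it had been the fifth in wt, at 2342 ± 169.

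Among the genes of storage and transport, Npc2, the soluble protein that hands cholesterol out of lysosomes, was at 3666, 3785 and 3466 in wt and 1824, 1807 and 1880.4 in tetra, 1.98-fold higher in wt (adjusted p = 4.34e-15). Its membrane partner Npc1 was 1.55-fold higher, the cytosolic sterol carrier Stard4 1.27-fold and the acyltransferase Soat1 1.13-fold. Soat2, the acyltransferase known from liver and intestine, was low in both lines and went the other way, at 50.2, 48.5 and 41.3 in wt and 83.4, 74.0 and 94.6 in tetra (1.80-fold higher in tetra, adjusted p = 0.000627). In the LXR group, Nr1h3 (LXR alpha) was 1.33-fold and Mylip, an LXR target whose product marks the LDL receptor for degradation, 1.24-fold higher in wt. Nr1h2 (LXR beta) was at 2017 ± 85.2 and 1801 ± 151 (adjusted p = 0.106). The plot of vehicle libraries shows all 32 genes by role.

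**Figure D1:**
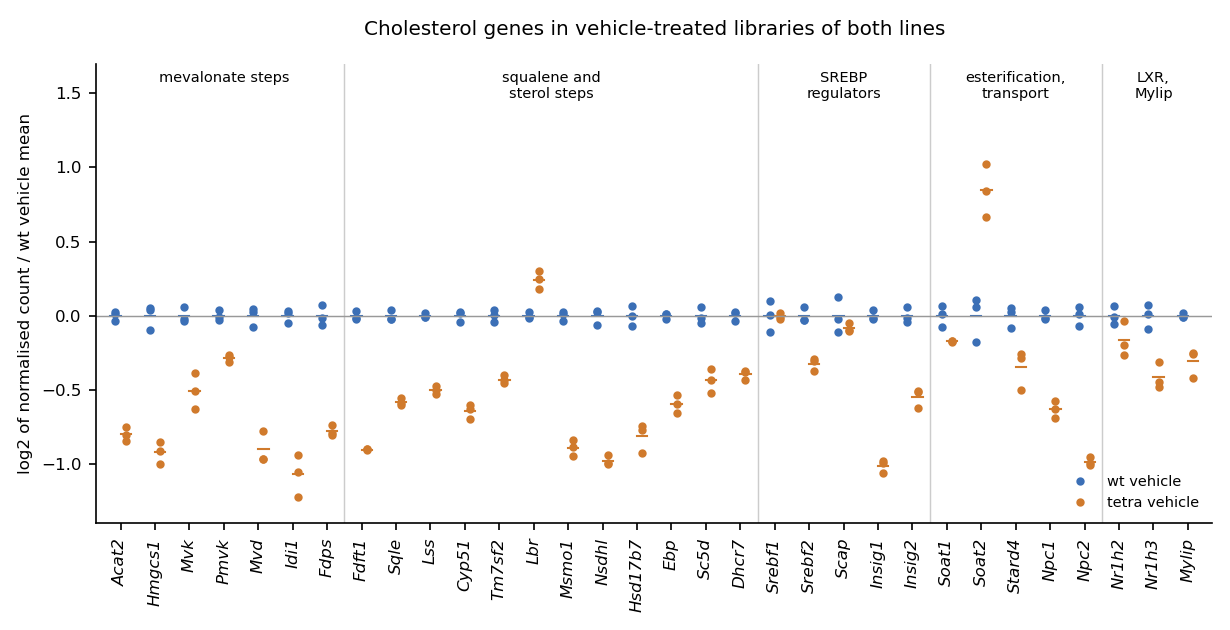
Vertical axis: log2 of the normalised count in each vehicle library relative to the wt vehicle mean; horizontal axis: the 32 genes grouped by role. Points are libraries (3 per line), short lines are log2 of the group means. Tetra libraries lie below wt libraries for 18 of the 19 synthesis genes, with Lbr the exception, and Soat2 and Lbr are higher in tetra.

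The lower level of synthesis genes in tetra was seen under each treatment. Every wt library lay above every tetra library for 18 of the 19 synthesis genes in vehicle, in Cort, in TCA and in TCA plus Cort, where the share over all 12023 genes was 26.8%, 23.8%, 20.7% and 25.3%. The exception was Lbr in vehicle and Cort, with wt over tetra at 0.845 and 0.839. With TCA and TCA plus Cort the ratio of Lbr was 1.19 and 1.21, and the exception was Tm7sf2, whose libraries overlapped. Over all 32 members the line gap was less steady. Every wt library lay above every tetra library for 27 members in vehicle, 26 in Cort, 22 in TCA and 23 in TCA plus Cort. Outside the synthesis genes, wt over tetra with TCA was 1.09 for Npc2 and 0.711 for Insig2, but still 1.59 for Insig1. The median ratio of wt to tetra over the synthesis genes was 1.56 in vehicle, 1.68 in Cort, 1.72 in TCA and 1.91 in TCA plus Cort, and no test was made of a change in that median. Summed over the 19 genes, the level in CPM (of exon reads without the 45S precursor) was 2336 ± 59.8 in wt vehicle, 2460.1 ± 117 in wt Cort, 2549 ± 81.9 in wt TCA and 2502 ± 53.6 in wt TCA plus Cort (mean ± SD, n = 3). In tetra it was 1581 ± 21.7, 1572 ± 31.2, 1524 ± 101 and 1407 ± 161 in the same order. Thus the sums of wt stayed above those of tetra in all 4 treatments, and the tetra group with TCA plus Cort had the widest spread.

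In the wt libraries with TCA, members differed from vehicle in both directions, and a batch of these libraries cannot be told apart from TCA. Against wt vehicle, 9 members rose and 13 fell, 68.8% of the 32, where 57.4% of all genes tested were called, 28.8% higher and 28.6% lower, so the share of members called was not far above that of all genes. On the deposited log2-like scale of this test, which is not the scale of the printed folds, the median difference was -0.07 over the members and 0.00 over all genes. The median fold of TCA over vehicle was 0.943 over the members and 0.996 over all genes that met the same rule. Scaled to total reads, 12 members rose and 11 fell, and the share of higher genes among all called ones went from 50.3% to 62.7%. The largest rise was that of Soat2, at 50.2, 48.5 and 41.3 in vehicle and 156, 196 and 202 with TCA, which is 3.96-fold (adjusted p = 1.43e-07). Each TCA library lay far above each vehicle library, from a low starting level.

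Genes of lysosomal cholesterol export and both INSIG genes fell. Npc2 was at 3666, 3785 and 3466 in vehicle and 1923, 1941 and 1852 with TCA, 1.91-fold lower (adjusted p = 2.75e-09). Insig2 was at 2368, 2548 and 2411 in vehicle and 1293, 1363 and 1254 with TCA, 1.87-fold lower (adjusted p = 7.93e-09). For both genes the lowest vehicle library was far above the highest TCA library. Npc1 fell too, 1.48-fold (adjusted p = 1.16e-06).

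Mylip was at 944, 959.7 and 946 in vehicle and 541, 570.3 and 549 with TCA, 1.72-fold lower (adjusted p = 1.47e-07). Insig1 was at 11089, 11569 and 11126 in vehicle and 7877, 7985 and 8044 with TCA, 1.41-fold lower (adjusted p = 3.95e-07). Replicates were close together in both groups for both genes. Srebf1 fell 1.35-fold, Nr1h3 1.45-fold, Nr1h2 1.28-fold and Srebf2 1.15-fold, so that 4 of the 5 genes of the SREBP group and the 3 kept genes of the LXR group fell. With 28.6% of all genes called lower, these counts of few genes set neither group apart. Srebf2 and Fdft1 did not pass the test under scaling to total reads.

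The synthesis genes split. Among those that rose were Lbr, at 2234, 2301 and 2240.1 in vehicle and 3273, 3177 and 3179 with TCA (1.42-fold, adjusted p = 3.56e-07), and Pmvk, at 976, 945 and 930.0 and 1346, 1475 and 1146 (1.39-fold, adjusted p = 0.000146). Sqle rose 1.16-fold, Cyp51 1.14-fold, Mvk 1.12-fold, Msmo1 1.11-fold, Lss 1.10-fold and Sc5d 1.09-fold. The calls of Mvk and Sc5d were weak, each lost in 7 of 14 alternative settings. Hmgcs1 fell, from 10265, 10168 and 9250.4 to 7950.0, 8434 and 7109.8 (1.26-fold, adjusted p = 0.000421), as did Hsd17b7 (1.25-fold), Mvd (1.21-fold) and Fdft1 (1.16-fold). Idi1 was at 949 ± 28.4 in vehicle and 975 ± 68.9 with TCA (mean ± SD, n = 3; adjusted p = 0.59). In all, 8 of the 19 synthesis genes rose, 4 fell and 7 did not pass the test.

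**Figure D2:**
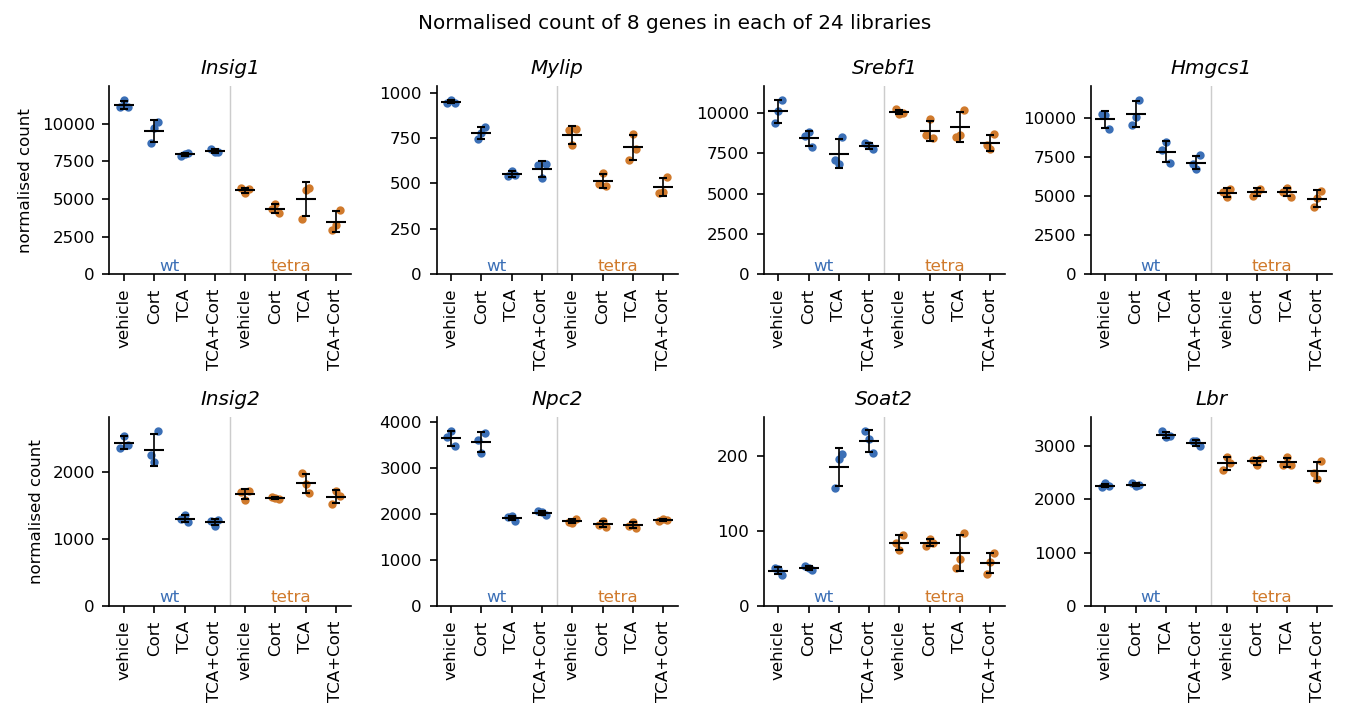
Normalised counts (vertical axis, from 0) of 8 genes in the 8 groups; points are the 3 libraries of a group, bars the mean ± SD. Insig1 and Mylip are lower with Cort alone than with vehicle in both lines, Insig2 and Npc2 are lower and Soat2 and Lbr higher in the wt groups with TCA, and Hmgcs1 is lower in every tetra group than in every wt group.

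In tetra, TCA gave no such pattern. Against tetra vehicle no member was called by limma, where 2 of 13075 genes tested were (0.0153%). A single member, Mvd, had an unadjusted p below 0.05, as did 4.01% of all genes (Mvd adjusted p = 0.941), and limma with voom weights on the recovered counts also called none. Libraries of the groups overlapped for all 32 members, and 9.04% of the 12023 genes showed no overlap. Soat2 was at 83.4, 74.0 and 94.6 in tetra vehicle and 50.9, 62.8 and 97.3 with TCA, Npc2 at 1824, 1807 and 1880.4 and 1743, 1819 and 1694, and Insig2 at 1711, 1582 and 1719 and 1982, 1827 and 1693. None of the 3 genes moved in tetra as it did in wt. The spread was wider in this group, with a median coefficient of variation over the members of 9.13% against 3.51% in tetra vehicle, and replicate 1 was the lowest of the 3 TCA libraries for 21 of the 32 members.

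The difference between the lines was itself tested, as the TCA effect in wt minus that in tetra. It was called for 14 members, 43.8% of the 32, which equals the 43.8% of all genes tested. The wt effect was above that of tetra for 6 members (Soat2, Pmvk, Lbr, Mvk, Cyp51 and Sqle) and below it for 8 (Insig2, Npc2, Mylip, Npc1, Hsd17b7, Hmgcs1, Srebf1 and Fdft1). The log2 difference of effects was 2.26 ± 0.26 (SE) for Soat2 (adjusted p = 6.27e-08), -1.04 ± 0.09 for Insig2 (adjusted p = 5.91e-10) and -0.86 ± 0.07 for Npc2 (adjusted p = 1.22e-10). Insig1 did not pass (log2 difference -0.31 ± 0.16, adjusted p = 0.116), with 1 tetra TCA library at 3680.3 and the other 2 at 5608 and 5709. Scaled to total reads, the effect in wt was above that in tetra for 11 members and below it for 5, and the share of higher genes among all called went from 48.9% to 63.8%. The marker sums of the wt TCA libraries given above moved with these results, while in tetra with TCA the summed epithelial markers ranged from 605.5 to 611.5 against 543.0 to 680.5 in vehicle, and the part of these shifts in the results was not tested.

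**Figure D3:**
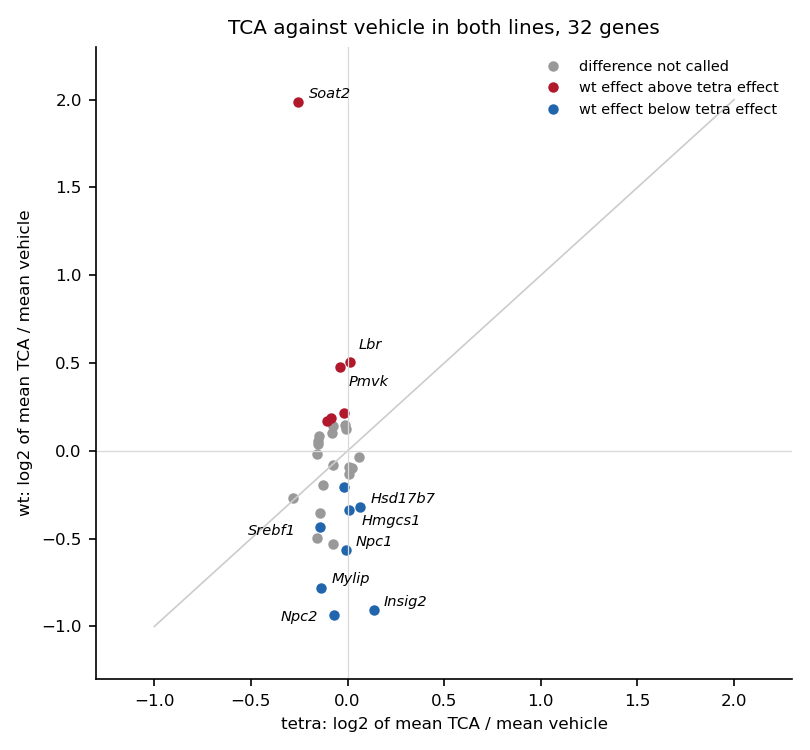
Log2 of the mean with TCA over the mean with vehicle in wt (vertical axis) against the same in tetra (horizontal axis), 1 point per gene, 32 genes. Coloured points are the 14 genes whose effect differed between the lines; most points lie close to 0 on the tetra axis, and Soat2 reaches 1.99 in wt. The diagonal marks equal effects.

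Cort changed few members, and those that passed the test fell. In wt, Insig1, Mylip and Srebf1 fell and no member rose, 3 of 32, where 2.38% of all genes tested were called, 1.47% lower and 0.918% higher. Insig1 was at 11089, 11569 and 11126 in vehicle and 8723, 9681 and 10132 with Cort, 1.18-fold lower (adjusted p = 0.0145). Mylip was at 944, 959.7 and 946 and 747, 777 and 809, 1.22-fold lower (adjusted p = 0.0147). Srebf1 was at 9342, 10113 and 10796 and 8559, 8798 and 7899, 1.20-fold lower (adjusted p = 0.0127). The groups did not overlap for any of the 3 genes, but the gap was small, and without wt vehicle replicate 2 or 3 none of the 3 was called, nor in the fit of all 24 libraries, and without wt vehicle replicate 1 or wt Cort replicate 1 the call was left for 1 of them. Scaling to total reads kept 3 members lower, while the share of higher genes among all called went from 38.5% to 56.4%.

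In tetra, Cort lowered Insig1 and Mylip, 2 of 32 members, where 3.34% of all genes tested were called, 0.871% lower and 2.47% higher. Insig1 was at 5717, 5389 and 5643 in vehicle and 4335, 4646 and 4089 with Cort, 1.28-fold lower (adjusted p = 0.000163). Mylip was at 794, 710.5 and 798 and 497, 558 and 487, 1.49-fold lower (adjusted p = 3.51e-05). Every Cort library was below every vehicle library for both, and in the fit of all 24 libraries Mylip was still called and Insig1 was not (adjusted p = 0.109). Srebf1 was at 10205, 9949 and 10002 and 8649, 9595 and 8428 (adjusted p = 0.0773). No synthesis gene was called with Cort in either line, with 5 of 19 at an unadjusted p below 0.05 in wt and none in tetra (1789 of 12749 and 1574 of 12863 genes over all), and limma with voom weights called none either. Hmgcs1, for example, was at 5222 ± 266 in tetra vehicle and 5254 ± 230.1 with Cort (mean ± SD, n = 3). The Cort effect did not differ between the lines past the threshold for any member, where 0.780% of all genes tested were called (0.0546% with the wt effect above and 0.725% with it below). A single member, Mylip, had an unadjusted p below 0.05 (log2 difference of effects 0.29 ± 0.11 (SE), adjusted p = 0.579).

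With both agents, Cort on top of TCA lowered Mylip in tetra and no member in wt. In tetra, Mylip was at 631, 772 and 691 with TCA and 447, 456 and 537 with both, 1.46-fold lower (adjusted p = 0.00559), where 1.71% of all genes tested were called, 0.288% lower and 1.42% higher. The groups did not overlap, and the call was lost without tetra TCA replicate 2 or tetra TCA plus Cort replicate 1 (adjusted p up to 0.061). Insig1 was at 3680.3, 5608 and 5709 with TCA and 2940.2, 3275 and 4292 with both (adjusted p = 0.153), and the groups overlapped through replicate 1 of TCA. In wt, Mylip was at 541, 570.3 and 549 with TCA and 604, 529 and 608 with both, and Insig1 at 7877, 7985 and 8044 and 8303, 8106 and 8094. No wt member was called by limma or with voom weights, where 0.415% of all genes tested were (0.274% higher and 0.141% lower), and 9 of the 32 had an unadjusted p below 0.05, against 17.3% of all genes. Without wt TCA replicate 3, 11 members and 2569 genes were called. Scaled to total reads, the share of higher genes among all called went from 66.0% to 80.0%.

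**Figure D4:**
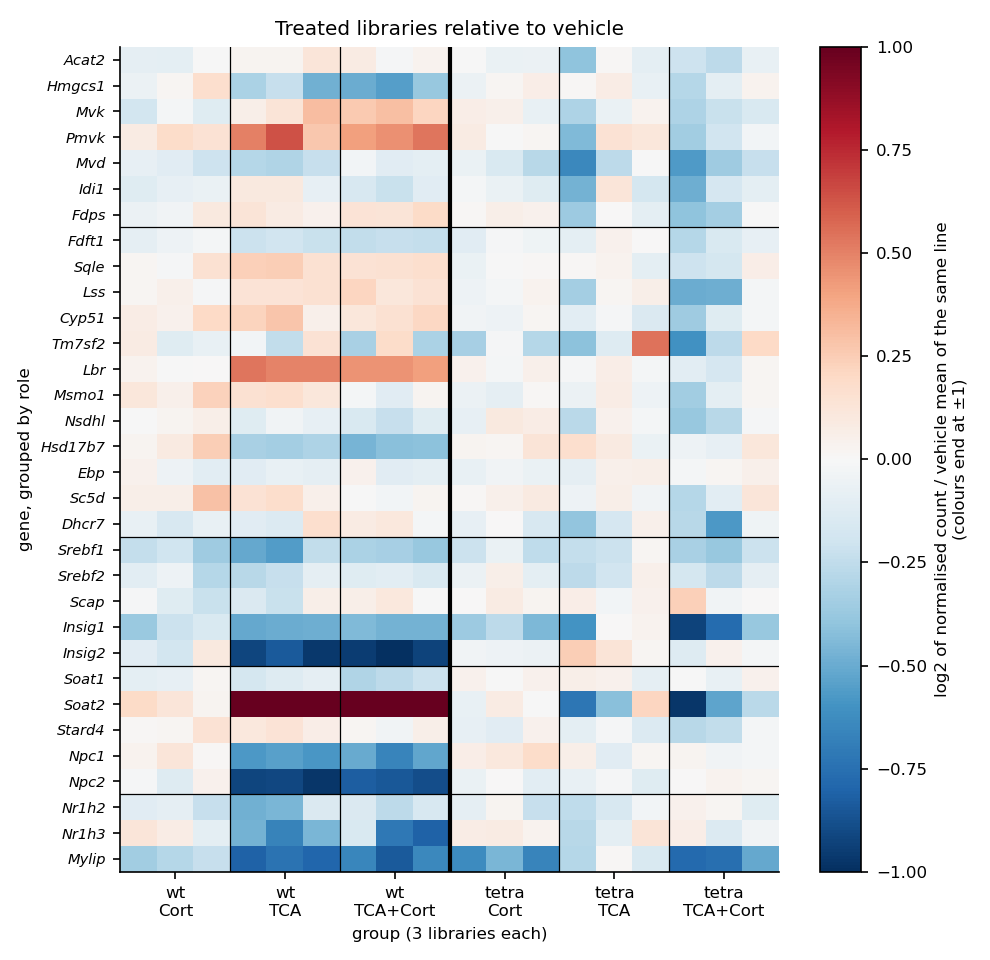
Log2 of the normalised count in each treated library relative to the vehicle mean of the same line, for 32 genes (rows, grouped by role) and 18 libraries (columns, 3 per group). Red is higher and blue lower, and the colours end at 1 in both directions. Mylip is blue in every group with Cort, and the wt groups with TCA share the red of Soat2, Lbr and Pmvk and the blue of Npc1, Npc2, Insig2 and Mylip.

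TCA on top of Cort was compared with Cort alone, between groups that the comparison of TCA with vehicle did not compare. In wt, 5 members were higher and 11 lower, 16 of the 32, where 56.2% of all genes tested were called, 28.2% higher and 28.1% lower. Scaled to total reads, 10 members were higher and 8 lower, and the share of higher genes among all called went from 50.1% to 61.7%. The 13 members called in both TCA comparisons of wt were 59.1% of the 22 called against vehicle and 81.2% of the 16 called against Cort. Over all 12683 genes tested in both, the shares were 76.7% and 77.8%, and 99.4% of the genes called in both had the same direction. The comparison with vehicle was fitted within its table and that with Cort over all 24 libraries. For 12 of the 13 members the direction was the same. The other, Msmo1, was higher against vehicle and lower against Cort, but lost the first call in the fit of all 24 libraries (adjusted p = 0.0637) and the second in 7 of 13 alternative settings. The wt TCA plus Cort libraries also differed from wt Cort in the summed epithelial markers (154.7 to 198.7 against 926.5 to 1247.6), the mesenchymal ones (153382.1 to 155435.5 against 199864.1 to 210044.1) and the share of the 45S precursor (25.6% to 28.6% against 18.2% to 21.6%), and the part of these shifts was not tested. Soat2 was at 53.2, 50.7 and 47.5 with Cort and 232, 222 and 204 with both, 4.35-fold higher (adjusted p = 1.51e-10), with no overlap. Npc2 was at 3606, 3320.4 and 3743 and 2054, 2026 and 1967, 1.76-fold lower (adjusted p = 9.5e-14), and Insig2 was 1.87-fold lower (adjusted p = 3.38e-12). Hmgcs1 was at 9504, 10053 and 11131 with Cort and 7033, 6749 and 7594 with both, 1.44-fold lower (adjusted p = 1.05e-06), and Hsd17b7 was 1.47-fold lower.

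In tetra the same comparison called no member by limma, where 0.0780% of all genes tested were called (0.0546% higher and 0.0234% lower). At an unadjusted p below 0.05 there were 14 members, 10 of them synthesis genes, against 8.39% of all genes. The lowest adjusted p was 0.363, for Fdps, at 2423, 2503 and 2486 with Cort and 1819, 1903 and 2401 with both, and the same for Lss, at 2039, 2086 and 2169 and 1504, 1509.8 and 2084. Replicate 3 of the TCA plus Cort group was the highest of its 3 libraries for 26 of the 32 members, and without it 5 members and 259 genes were called. The median coefficient of variation over the members was 10.4% in this group and 3.70% in tetra Cort.

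A further list of 29 genes of sterol sensing, uptake, trafficking and conversion was set beside the members, and 25 of them met the same rule. With TCA in wt, 7 of the 25 were higher and 8 lower than with vehicle, a share near the 57.4% of all genes called. By fold, the largest changes were those of Gramd1b, a sterol carrier between plasma membrane and endoplasmic reticulum (1.79-fold higher, adjusted p = 2.19e-07), Lipa, the lysosomal lipase that frees cholesterol from its esters (1.72-fold lower, adjusted p = 2.44e-06), Lrp1, a scavenging receptor of the LDL receptor family (1.60-fold lower, adjusted p = 8.63e-06) and Apoe, the apolipoprotein E of lipoprotein particles (1.59-fold higher, adjusted p = 9.39e-05). In tetra, none of the 25 was called with TCA and none had an unadjusted p below 0.05. Between the lines in vehicle, 10 of the 25 were lower and 3 higher in tetra, where 19.7% and 18.8% of all genes were, with a median log2 difference of -0.13, against -0.64 over the synthesis genes.

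The 2 members left out by the minimum were the efflux pumps. Abca1 ranged from 0 to 6.08 normalised counts over the 24 libraries and Abcg1 from 2.34 to 15.9. A floor of 3 counts lay between 2.55 and 3.57 normalised counts, and floors cover counting error only. Neither pump was tested, and no fold is given.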

How the data were processed

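Total RNA of 24 libraries was sequenced after ribosomal RNA removal (TruSeq Stranded Total RNA, per the labels' protocols). Reads were trimmed with cutadapt, mapped by STAR (2.7.0f, build mm10) and counted by HOMER (4.10.4), per the submitters' processing notes. Each of the 6 deposited tables held 1 treated and 1 control group, and exon reads were summed per RefSeq gene and variance-stabilised on a log2-like scale by the authors, per the file headers. The headers state no strand setting. The authors' own fold changes and p-values were not used. The header of the table of TCA in wt names fewer group labels than it has libraries, and the commands in 5 of the 6 headers name Halo where the columns and labels say GFP; columns were taken by their names.

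The deposited log2-like values were inverted to read counts, which came out whole, within 0.01, for 100% of values below 1000. A deposited 0 count stood at 6.32 to 8.61, which differed between tables. Comparisons within a table used limma (3.58.1, R 4.3.3) on that table's deposited values, allowing the variance a trend with intensity. Comparisons across tables were tested on log2 of the normalised count plus 1 over all 24 libraries, scaled by median ratios, with 8 groups sharing 1 spread. Testing covered genes whose mean normalised count reached 10, and p-values from limma were adjusted over all of these by the Benjamini-Hochberg method. Printed levels and folds are on the 24-library scale, and fold changes differed from those of the own table by at most 0.818%. Values and figures were computed with Python 3.11.15, numpy 2.4.6, pandas 2.3.3 and matplotlib 3.10.9. Fits were also run on simulated counts with a single spread for all genes, unlike these data, and no result here rests on that run. A floor of 3 counts equals 0.0981 to 0.136 CPM.

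The members, the further list and the roles were chosen with earlier results of these data known. All members may be named; values in every library are given for the members with the largest changes, and up to 4 genes of the further list are named by the size of their change with TCA in wt. Alternatives were the filter, the trend, the scale, the pseudocount, scaling to total reads, voom weights, the groups in the fit, the replicate number as a block and each library left out.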

Additional observations from a re-analysis of the deposited data

Results flagged for a closer look

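The TCA effect differed between wt and tetra, by the test of the difference of the 2 effects in limma over 24 libraries, for 14 of the 32 members. On the log2 scale the wt effect was above the tetra effect by 2.26 for Soat2, 0.53 for Pmvk, 0.49 for Lbr, 0.27 for Mvk, 0.27 for Cyp51 and 0.23 for Sqle. The difference was -1.04 for Insig2, -0.86 for Npc2, -0.64 for Mylip, -0.56 for Npc1, -0.39 for Hsd17b7, -0.35 for Hmgcs1, -0.29 for Srebf1 and -0.19 for Fdft1. The same test called 43.8% of all genes, and the wt TCA libraries cannot be told apart from any batch of their own. No group of 4 or more libraries existed in which a single library could be tested as standing apart.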

How the results depend on the processing

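Of 352 results for single members (32 members in 11 comparisons), 86 were called, and 61 of these were called under every alternative run. Over 5151 alternatives, 107 lost a call, 61 gained one and none reversed a called direction. The fit of all 24 libraries, chosen after seeing the data, called 0 members for Cort in wt, 1 for Cort in tetra and 2 for TCA plus Cort against TCA in tetra. Leaving out each library in turn gave 19 to 26 members for TCA in wt, 0 to 3 for Cort in wt, 0 to 11 for TCA plus Cort against TCA in wt, 0 to 0 for TCA in tetra, 2 to 3 for Cort in tetra and 0 to 2 for TCA plus Cort against TCA in tetra. The ranges were 13 to 16 for TCA plus Cort against Cort in wt, 0 to 5 in tetra, 26 to 28 for tetra against wt, 10 to 16 for the difference of TCA effects and 0 to 0 for that of Cort effects.

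Counts over all genes moved by more than 1.5 times as follows. TCA plus Cort against TCA in wt called 53 genes, 9 with the replicate block and 32 in the 24-library fit, and 6 to 2569 with a library left out. TCA in tetra called 2 genes, 5 with no filter, 11 with the block, 6 in the 24-library fit and 1 to 6 with a library left out. Cort in wt called 304, 122 in the 24-library fit and 148 to 500 with a library left out. TCA plus Cort against TCA in tetra called 219 and 426 in the 24-library fit. TCA plus Cort against Cort in tetra called 10, 2 without a trend and 2 to 259 with a library left out. The difference of Cort effects called 100, and 154 with only the groups compared. The cause was not tested.

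Deviations of replicates with the same number correlated from -0.426 to 0.490, and in no comparison were all 3 correlations over 0.1, so the numbers were not taken to pair the libraries. With the replicate block, members called were 23 for TCA in wt, 3 for Cort in each line, 2 for TCA plus Cort against TCA in tetra and 13 for the difference of TCA effects. Genes with a mean normalised count under 10, Abca1 and Abcg1 among them, were too shallow to enter the tests.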
